A study of Mus musculus with 12 samples.

Results

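Purkinje cell marker genes were followed in cerebellar RNA of a mouse model of spinocerebellar ataxia type 1 (SCA1). The set holds 10 genes (Pcp2, Pcp4, Calb1, Pvalb, Rgs8, Ppp1r17, Gng13, Arhgef33, Atp2a3 and Car8) of the 55401 gene identifiers counted. They are named markers, chosen with earlier results of these data known, so their counts are set beside those of all genes as a description. All 10 were found and passed the filter on low counts. Each was compared between groups, and again relative to Gabra6, Fat2 and Neurod1, genes of granule cells, in the same library.

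RNA was sequenced from the cerebellum of 12 mice, 1 library per mouse and 4 per group, and libraries are named here by animal number. Het DMSO and Het Hit 2 mice were heterozygous for a knock-in Atxn1 allele with an expanded CAG tract (Atxn1 154Q/2Q), and WT DMSO mice were wild-type. Dosing by injection into the peritoneum began at 18 weeks of age, once a day for 5 days, and was repeated for another 5 days after 2 days of rest. Het Hit 2 mice received the compound Hit 2 at 25 mg/ml in dimethyl sulfoxide (DMSO), all other mice DMSO alone (below 4 ml/kg), and tissue was taken at 20 weeks. No wild-type mice received Hit 2. The study title names compounds selective for expanded CAG repeats as lowering such RNAs. The comparisons are thus Het DMSO against WT DMSO, Het Hit 2 against Het DMSO, and Het Hit 2 against WT DMSO.

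Purkinje cells are large inhibitory neurons and the sole output of the cerebellar cortex. Granule cells, the most numerous neurons of the cerebellum, send them excitatory input through parallel fibres. Purkinje cells rely on heavy calcium signalling through metabotropic glutamate receptors, G proteins and inositol trisphosphate receptors, and several of their markers buffer, pump or gate calcium. In SCA1 they are the cells best known to be affected, and ataxin-1, the product of Atxn1, acts in the nucleus together with the repressor Capicua. In whole tissue, fewer Purkinje cells and less RNA per cell cannot be told apart.

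Promoter sequences are given for 3 members, with and without a motif searched for near the start site. The RefSeq promoter table (GRCm38.p6) matched 7 of the 10 members, and the bases upstream of each transcription start were searched on both strands for AGGTCA, the core bound by the nuclear receptor RORα, which Purkinje cells express. In the 250 bases upstream of any listed start, AGGTCA was found in 4 of the 7 (Pcp2, Pcp4, Rgs8 and Arhgef33). It was found in 15.8% of all 27025 genes and at 14.0% of all 32851 starts in the table. Some members, such as Pcp2 and Rgs8, have several listed starts, so more bases were searched for them. The 8-letter motifs bound by Capicua, TGAATGAA and TGAATGGA, were in none of the 7 and in 2.41% of all genes. A match is only a match of letters, and its absence says only that these letters are not in that window. Shown are the 100 bases upstream of the most upstream listed start of Pcp2 (chr8:3625548-3625647, minus strand), of the start of Arhgef33 (chr17:80307307-80307406, plus strand), and of the most upstream start of Gng13 (chr17:25717072-25717171, plus strand), 5′ to 3′. Capitals mark AGGTCA or its reverse complement. Pcp2 and Arhgef33 are shown as matches near the start, and Gng13 because its fold change was the lowest of the set.
Pcp2: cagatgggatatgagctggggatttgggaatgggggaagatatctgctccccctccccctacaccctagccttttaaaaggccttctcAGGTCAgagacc
Arhgef33: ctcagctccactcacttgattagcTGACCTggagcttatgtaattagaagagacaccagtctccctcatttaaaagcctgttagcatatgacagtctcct
Gng13: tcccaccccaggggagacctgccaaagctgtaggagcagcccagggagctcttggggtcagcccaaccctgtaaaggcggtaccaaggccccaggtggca

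Before the markers are compared, 3 libraries need to be set apart. Depth was 15855751 to 45265719 reads assigned to genes. Library 411 (Het DMSO) went against its tissue label: the summed level of 8 granule cell genes was 153 CPM there (CPM are counts scaled to a common library size, here with TMM factors) and 3532 to 8328 CPM in the other 11, and no gene of the list was at 0. Its summed level of 8 midbrain and forebrain genes was 130 CPM, led by dopamine neuron genes such as Th and Slc6a3. In library 410 (Het Hit 2) the same sum was 33.9 CPM, and in the other 10 it was 6.41 to 24.6 CPM, with Slc6a3 at 0 in 5 of them. Oligodendrocyte genes summed to 6417 CPM in 411 and 5371 CPM in 410, and to at most 3373 CPM elsewhere. In library 409 (Het DMSO) mitochondrial transcripts took 0.0795% of gene reads, against 1.85% to 2.81% in the others. Xist marked WT DMSO libraries 425 and 426 alone (1393 and 1464 CPM, at most 0.29 CPM in the others). No Het library was marked by it, so both comparisons with WT DMSO are unbalanced for Xist. Results are therefore given with all 12 libraries, without 411, and without 409, 410 and 411 together, a set chosen after these values were seen.

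**Figure D1:**
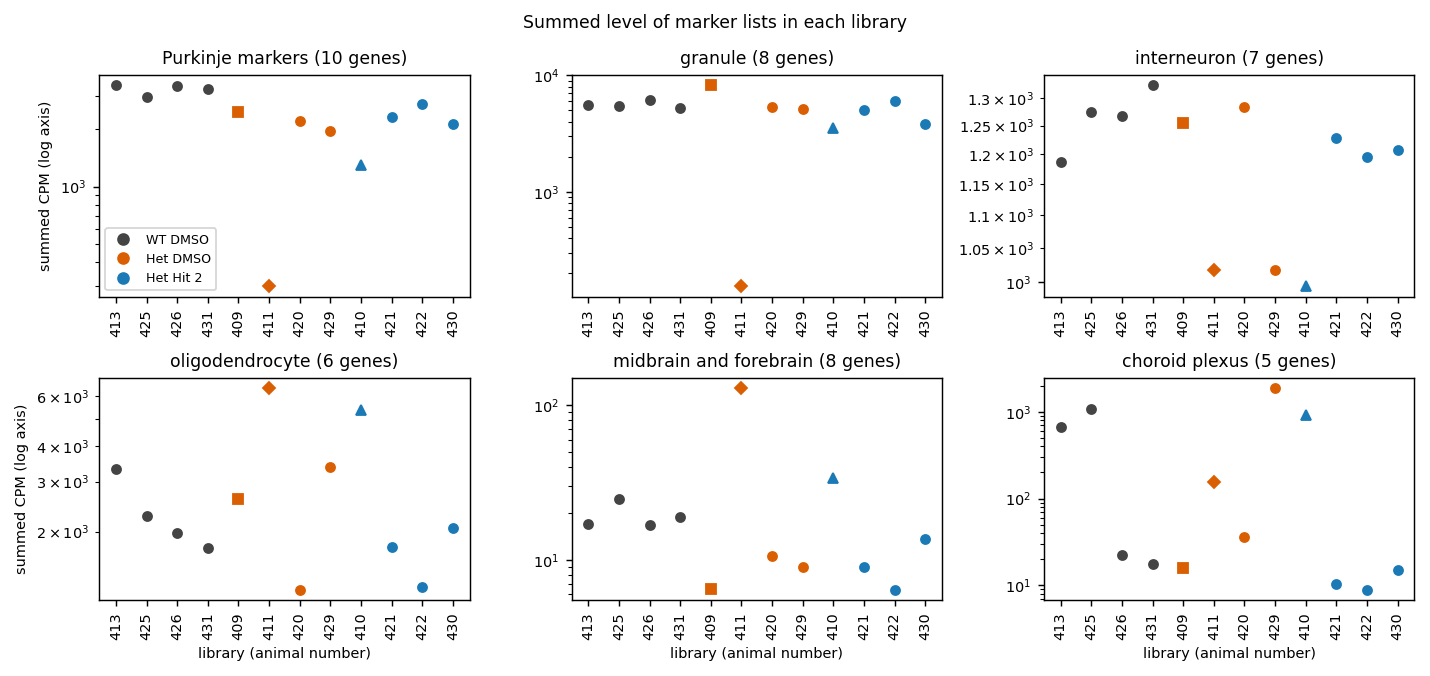
Summed CPM (log axis) of the 10 Purkinje markers and of 5 lists for other cell types or regions in each library, named by animal number on the horizontal axis and coloured by group. Library 411 lies lowest for Purkinje markers and granule genes and highest for midbrain and forebrain genes (130 CPM), and library 410 lies second in the latter (33.9 CPM).

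In WT DMSO the 10 markers summed to 2964 to 3426 CPM, and they summed to 299 to 2453 CPM in Het DMSO and 1291 to 2704 CPM in Het Hit 2. Neither Het group overlapped WT DMSO. Per exon length, Pvalb was the most abundant in WT DMSO at 245 ± 11.5 RPKM (RPKM are CPM divided by exon length, SD, n = 4), followed by Car8 at 204 ± 16.8 RPKM. Pcp2 (106 RPKM), Gng13 (104 RPKM), Rgs8 (100.2 RPKM) and Calb1 (83.0 RPKM) came next, each overlapping its neighbour in this order. Ppp1r17 stood at 56.6 RPKM, Atp2a3 at 48.9 RPKM, and Arhgef33 (36.7 RPKM) and Pcp4 (33.8 RPKM) overlapped at the bottom. The replicates are separate mice.

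In Het DMSO against WT DMSO every member had a negative log2 fold change (44.2% of all genes did), with a median of -1.10 against 0.05 over all genes tested. None of the 10 passed an adjusted p of 0.05 in edgeR's quasi-likelihood fit (0.00516% of 19378 genes did). At an unadjusted p of 0.05, 2 members were lower, Gng13 and Calb1, against 2.34% of all genes. All 4 Het DMSO libraries lay below all 4 WT DMSO libraries for 7 members, against 2.45% of all genes. The exceptions were Pvalb, Rgs8 and Atp2a3. In the values that follow, libraries stand in order of animal number: 413, 425, 426 and 431 in WT DMSO, 409, 411, 420 and 429 in Het DMSO, and 410, 421, 422 and 430 in Het Hit 2.

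Among the G protein genes, Gng13, a gamma subunit, gave the lowest fold change. It stood at 70.3, 79.8, 86.5 and 86.3 CPM in WT DMSO, at 31.6 (409), 7.92 (411), 40.0 and 41.3 CPM in Het DMSO, and at 25.2 (410), 42.9, 46.1 and 38.8 CPM in Het Hit 2. No Het library reached the lowest WT DMSO library, and the groups of Het mice overlapped each other. With all libraries Gng13 gave -1.42 on the log2 scale (SE 0.39, edgeR adjusted p = 0.62) between Het DMSO and WT DMSO. Without 411 it was -1.09 (SE 0.19, edgeR adjusted p = 0.15), and without 409, 410 and 411 it was -0.99 (SE 0.10, edgeR adjusted p = 0.0030). Library 411 was far below the other 3 Het DMSO libraries, which lay near each other.

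Pcp2, a modulator of G protein alpha subunits and a classical Purkinje marker, stood at 203, 179, 209 and 188 CPM in WT DMSO. Its levels in Het DMSO were 110 (409), 0.555 (411), 126 and 110 CPM, and in Het Hit 2 they were 70.2 (410), 143, 158 and 134 CPM. Library 411 held 11 Pcp2 reads, and the other 7 Het libraries lay between it and the lowest WT DMSO library. Between Het DMSO and WT DMSO Pcp2 gave -1.16 on the log2 scale (SE 0.84, edgeR adjusted p = 0.63), then -0.73 (SE 0.22, edgeR adjusted p = 0.62) without 411 and -0.72 (SE 0.09, edgeR adjusted p = 0.013) without 409, 410 and 411. Pcp2 overlaps exons of Pet100 on the opposite strand, so its levels rest on the strand counted.

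Rgs8, which speeds the shut-off of G protein alpha subunits, stood at 1068, 839, 1010 and 946 CPM in WT DMSO. It stood at 963 (409), 160 (411), 600 and 547 CPM in Het DMSO, and at 385 (410), 632, 776 and 637 CPM in Het Hit 2. Library 409 lay within the WT DMSO range, while the other Het libraries lay below it. Between Het DMSO and WT DMSO Rgs8 gave -0.77 on the log2 scale (SE 0.40, edgeR adjusted p = 0.62), -0.43 (SE 0.25, edgeR adjusted p = 0.62) without 411, and -0.75 (SE 0.12, edgeR adjusted p = 0.035) without 409, 410 and 411.

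**Figure D2:**
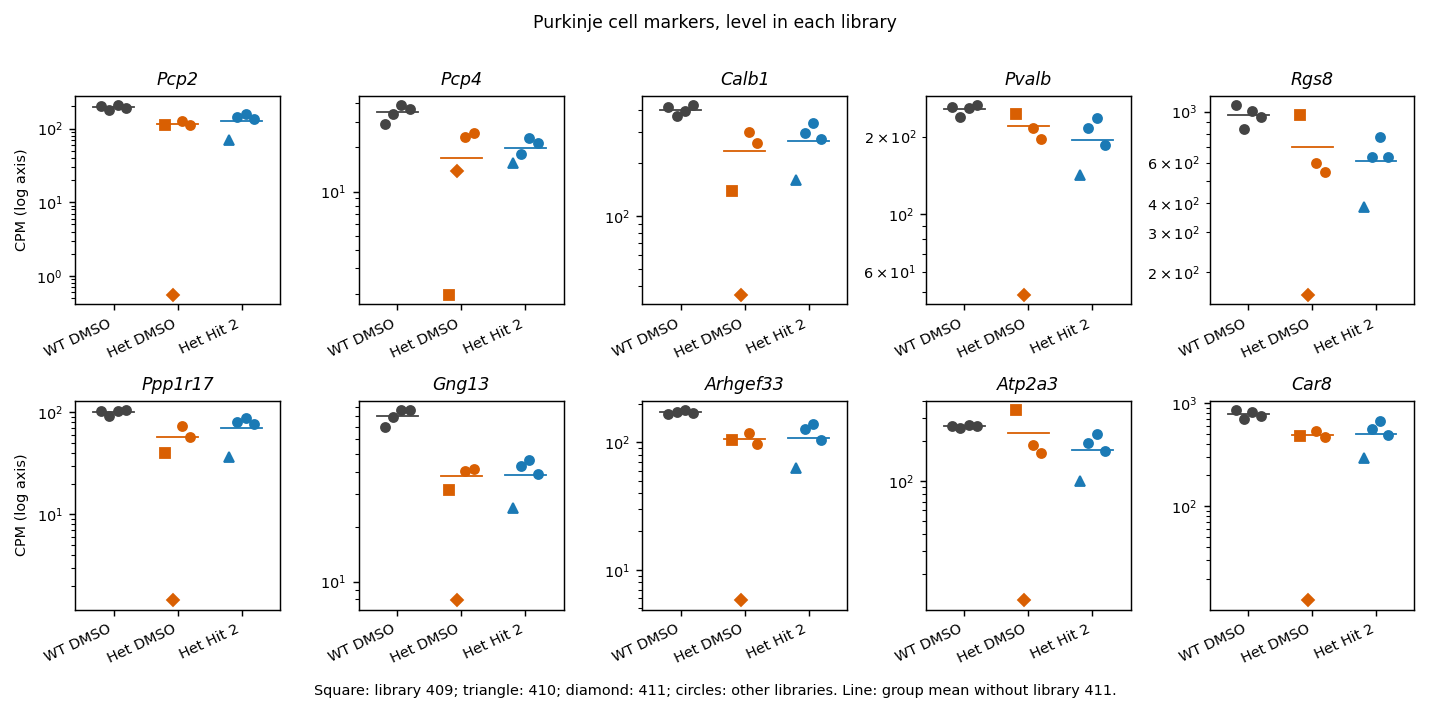
CPM (log axis) of each of the 10 markers in every library by group, with a line at the group mean without library 411. The square is 409, the triangle 410 and the diamond 411, which is the lowest Het DMSO library for 9 markers, while 409 is lowest for Pcp4 (1.97 CPM).

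Of the calcium-handling members, Calb1, the buffer calbindin, stood at 415, 373, 394 and 427 CPM in WT DMSO, at 139 (409), 35.6 (411), 300 and 260 CPM in Het DMSO, and at 161 (410), 295, 340 and 274 CPM in Het Hit 2. Neither Het group overlapped WT DMSO. Between Het DMSO and WT DMSO Calb1 gave -1.13 on the log2 scale (SE 0.48, edgeR adjusted p = 0.62), then -0.78 (SE 0.27, edgeR adjusted p = 0.62) without 411 and -0.52 (SE 0.10, edgeR adjusted p = 0.071) without 409, 410 and 411. Pcp4, a small regulator of calmodulin, stood at 29.1, 33.8, 39.0 and 36.8 CPM in WT DMSO. In Het DMSO it stood at 1.97 (409), 13.9 (411), 23.5 and 25.1 CPM, and in Het Hit 2 at 15.8 (410), 18.1, 23.3 and 21.6 CPM. Every Het library was below every WT DMSO library for Pcp4, and 409 rather than 411 was the lowest. Between Het DMSO and WT DMSO Pcp4 gave -1.11 (SE 0.52, edgeR adjusted p = 0.62) with all libraries, -1.05 (SE 0.57, edgeR adjusted p = 0.62) without 411 and -0.51 (SE 0.13, edgeR adjusted p = 0.21) without 409, 410 and 411. Pcp4 shares exon sequence with Igsf5 on the same strand, and ambiguous reads were left out of its count.

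Car8, a protein that binds the inositol trisphosphate receptor, stood at 855, 707, 815 and 759 CPM in WT DMSO, at 479 (409), 12.4 (411), 536 and 474 CPM in Het DMSO, and at 293 (410), 561, 674 and 495 CPM in Het Hit 2. The Het groups again lay wholly below WT DMSO. Car8 gave -1.06 (SE 0.70, edgeR adjusted p = 0.62) between Het DMSO and WT DMSO with all libraries, -0.64 (SE 0.23, edgeR adjusted p = 0.62) without 411 and -0.64 (SE 0.13, edgeR adjusted p = 0.077) without 409, 410 and 411. Atp2a3, a calcium pump of the endoplasmic reticulum, stood at 257, 252, 266 and 259 CPM in WT DMSO, at 340 (409), 12.7 (411), 186 and 161 CPM in Het DMSO, and at 100.1 (410), 192, 225 and 169 CPM in Het Hit 2. Library 409 held the highest Atp2a3 level of all 12 libraries, and the other 7 Het libraries lay below WT DMSO. Pvalb, the buffer parvalbumin, which cerebellar interneurons also make, stood at 260, 238, 259 and 265 CPM in WT DMSO, at 245 (409), 48.8 (411), 216 and 196 CPM in Het DMSO, and at 142 (410), 216, 237 and 185 CPM in Het Hit 2. Pvalb gave -0.53 (SE 0.37, edgeR adjusted p = 0.63) between Het DMSO and WT DMSO with all libraries, -0.20 without 411 and -0.31 without 409, 410 and 411. Atp2a3 gave -0.56 (SE 0.62, edgeR adjusted p = 0.72), -0.15 and -0.58 in the same order. Neither passed the adjusted threshold in any of these settings.

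The other members are Ppp1r17, an inhibitor of protein phosphatases, and Arhgef33, named as a guanine nucleotide exchange factor. Ppp1r17 stood at 101, 91.2, 101 and 104 CPM in WT DMSO, at 39.5 (409), 1.46 (411), 72.7 and 57.2 CPM in Het DMSO, and at 36.2 (410), 79.2, 87.3 and 75.8 CPM in Het Hit 2. Arhgef33 stood at 167, 171, 178 and 170 CPM in WT DMSO, at 103 (409), 5.80 (411), 118 and 96.2 CPM in Het DMSO, and at 63.2 (410), 126, 138 and 104 CPM in Het Hit 2. For both genes all 8 Het libraries lay below all 4 WT DMSO libraries. In Het DMSO against WT DMSO Ppp1r17 gave -1.22 (SE 0.69, edgeR adjusted p = 0.62) with all libraries, -0.81 (SE 0.27, edgeR adjusted p = 0.62) without 411 and -0.62 (SE 0.10, edgeR adjusted p = 0.042) without 409, 410 and 411. Arhgef33 gave -1.09 (SE 0.60, edgeR adjusted p = 0.62), -0.68 (SE 0.22, edgeR adjusted p = 0.62) and -0.68 (SE 0.11, edgeR adjusted p = 0.045) in the same order. Both passed the threshold in the last of these settings and in neither of the others.

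Without 411 alone the median of the members in Het DMSO against WT DMSO was -0.71, none passed the adjusted threshold (0.0456% of all genes did), and 6 were lower at an unadjusted p of 0.05 (2.54% of all genes). Without 409, 410 and 411, 5 of 10 passed the adjusted threshold in the lower direction (Gng13, Pcp2, Rgs8, Ppp1r17 and Arhgef33), against 0.345% of all genes, and all 10 were lower at an unadjusted p of 0.05 (4.63% of all genes). That fit compares 2 Het DMSO with 4 WT DMSO libraries. Leaving out WT DMSO libraries 425 and 426, those marked by Xist, gave a median of -1.08. The summed level of 6 astroglial genes was 1325 to 1416 CPM in WT DMSO, 1086 to 1176 CPM in Het DMSO without 411 and 851 to 1157 CPM in Het Hit 2. Slc1a3 and Gdf10 were the 2 of the 6 with all Het DMSO libraries below WT DMSO, against 2.45% of all genes, the other 4 overlapped, and none passed the adjusted threshold. The summed level of 7 interneuron genes overlapped between the groups (1187 to 1325, 1018 to 1284 and 994 to 1228 CPM). With all libraries, 0 of the 7 lay wholly below WT DMSO in Het DMSO and 1 in Het Hit 2 (2.45% and 3.42% of all genes). Without 411, 1 of the 7 lay wholly below WT DMSO in Het DMSO. The part of these lists or of the mitochondrial share of 409 in the marker differences was not tested.

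In Het Hit 2 against WT DMSO all 10 members again had negative log2 fold changes (44.3% of all genes did), with a median of -0.63 against 0.02 over all genes. None passed the adjusted threshold (0.00516% of all genes did), but for all 10 the 4 Het Hit 2 libraries lay below the 4 WT DMSO libraries, against 3.42% of all genes. Gng13 was the lowest at -1.08 (SE 0.38, edgeR adjusted p = 1.0), the only member below an unadjusted p of 0.05 (0.96% of all genes). Without 411, which is in neither of these groups but shares the fit, Gng13 gave -1.09 (SE 0.17, edgeR adjusted p = 0.062), and 8 members were lower at an unadjusted p of 0.05 (2.42% of all genes). Without 409, 410 and 411, Gng13 (-0.92, edgeR adjusted p = 0.0022) and Pcp4 (-0.72, edgeR adjusted p = 0.030) passed the adjusted threshold, against 0.37% of all genes. Library 410 was the lowest Het Hit 2 library for each of the 10 markers.

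**Figure D3:**
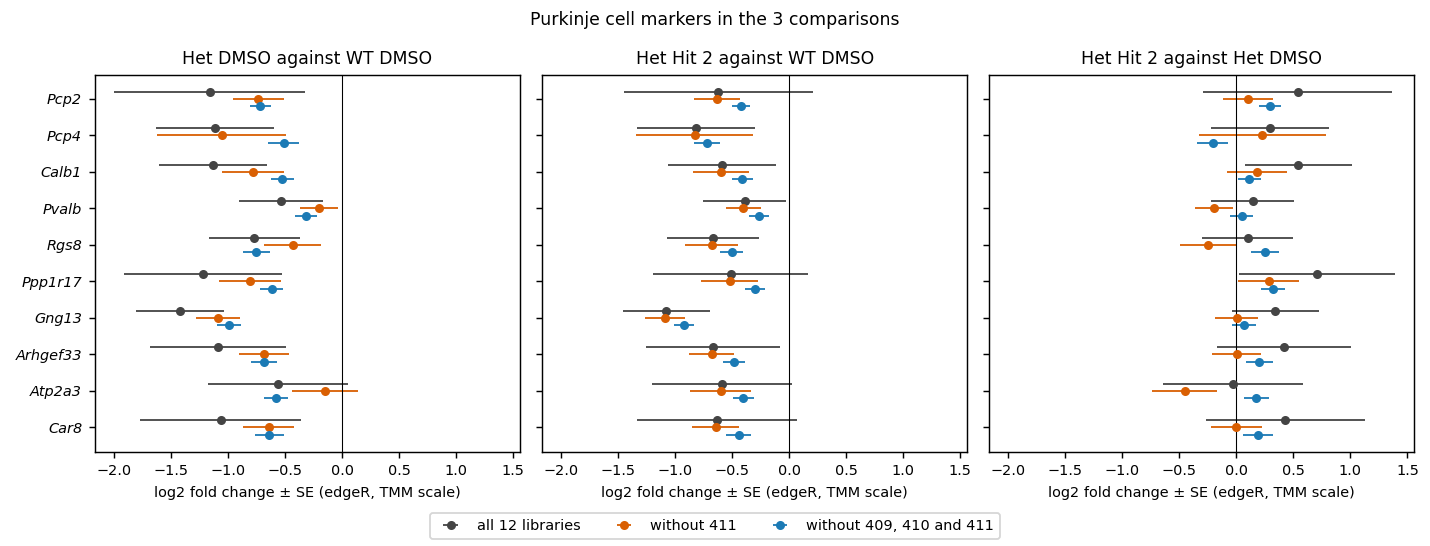
Log2 fold change with its standard error (edgeR) of each marker in the 3 comparisons, with all 12 libraries, without 411, and without 409, 410 and 411. In both comparisons with WT DMSO all points lie below 0 and Gng13 lies lowest, while points lie on both sides of 0 in Het Hit 2 against Het DMSO.

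In Het Hit 2 against Het DMSO no member passed the adjusted threshold (0% of 19378 genes did), and none passed at an unadjusted p of 0.05 (0.8% of all genes were lower and 0.753% higher). With all libraries every member's groups overlapped, while 0.392% of all genes lay wholly below in Het Hit 2 and 0.635% wholly above, and every member's groups also overlapped without 411. The median of the members was 0.38 with all libraries, with 1 negative fold change (55.7% of all genes) and 9 positive, and 0.00 without 411. With all libraries the 95% interval of the log2 difference was -0.49 to 1.17 for Gng13 and -1.27 to 2.34 for Pcp2. Without 411 it was -0.41 to 0.41 for Gng13, -0.38 to 0.58 for Pcp2, -0.40 to 0.76 for Calb1 and -0.79 to 0.30 for Rgs8. These intervals include 0 and differences in either direction. Without 409, 410 and 411, Pcp2 gave 0.29 (SE 0.10, edgeR adjusted p = 0.92) and Ppp1r17 0.32 (SE 0.11, edgeR adjusted p = 0.92), the 2 members higher at an unadjusted p of 0.05 (2.5% of all genes). In that setting, with 3 Het Hit 2 and 2 Het DMSO libraries, the members' median was 0.18, Pcp2, Rgs8 and Ppp1r17 lay wholly above Het DMSO (11.6% of all genes) and Pcp4 wholly below (10% of all genes). With 410 kept and only 409 and 411 left out, the members' median was -0.0085, with 6 lower and 4 higher, and 0 had an unadjusted p below 0.05. Without 409, 410 and 411, all 5 choroid plexus genes (median -4.85) and all 6 oligodendrocyte genes (median -0.54) were lower in Het Hit 2 than in Het DMSO. Their part in the marker differences was not tested. Both comparisons of Het Hit 2 use the same libraries, and both comparisons with WT DMSO share the WT DMSO libraries.

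Levels were next set against granule cells of the same library, as marker reads per 100 granule reads (the geometric mean of Gabra6, Fat2 and Neurod1). Gabra6, a receptor subunit of mature granule cells, stood at 306 to 339 CPM in WT DMSO, 0.606 (411) to 366 CPM in Het DMSO and 227 to 388 CPM in Het Hit 2. Fat2, a large cadherin of granule cells, stood at 2093 to 2494 CPM in WT DMSO, at 4022 CPM in 409, 2.57 CPM in 411, 2213 and 2118 CPM in the other Het DMSO libraries, and at 1452 to 2559 CPM in Het Hit 2. Neurod1, a transcription factor of granule neurons, stood at 213 to 241 CPM in WT DMSO, 1.92 (411) to 229 CPM in Het DMSO and 130 to 197 CPM in Het Hit 2. Neurod1 shares exon sequence with Cerkl on the same strand. In Het Hit 2 against Het DMSO on the TMM scale, all 3 granule genes were lower without 411 (median log2 fold change -0.22). They were also all lower without 409, 410 and 411 (median -0.11), while 1 was lower and 2 higher with all libraries. A lower reference raises every ratio to it. In 411 the 3 granule genes were so low that the ratio of every marker except Pcp2 lay far above the other 11 libraries, with Rgs8 at 11078 per 100 granule reads. With 411 included, 96.3% of all genes passed the threshold on this scale in Het DMSO against WT DMSO, the median of all genes was 6.56, and the members' median was 2.78. Members passing there were Pcp4 and Pvalb, in the higher direction, and they are read no further.

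Without 411, Gng13 stood at 12.8, 15.0, 14.7 and 16.4 reads per 100 granule reads in WT DMSO, at 6.34 (409), 7.02 and 7.83 in Het DMSO, and at 7.14 (410), 8.61, 7.94 and 10.1 in Het Hit 2. All 7 Het libraries lay below WT DMSO on this scale too. Gng13 gave a log2 fold change of -1.06 (edgeR adjusted p = 0.097) in Het DMSO against WT DMSO. Pcp2 stood at 36.8, 33.8, 35.5 and 35.6 in WT DMSO, at 22.1 (409), 22.2 and 21.0 in Het DMSO, and at 19.9 (410), 28.8, 27.1 and 34.9 in Het Hit 2. The Het DMSO libraries lay below WT DMSO for Pcp2, while 1 Het Hit 2 library, 430, lay within its range.

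Over the 10 members without 411, the median relative to granule genes was -0.68 in Het DMSO against WT DMSO, against 0.04 for all, and none passed the adjusted threshold (0.0203% of all genes passed in the lower direction). All 3 Het DMSO libraries lay below WT DMSO for 7 members (all but Pvalb, Rgs8 and Atp2a3), against 2.87% of all genes. The median in Het Hit 2 against WT DMSO was -0.37, against 0.35 over all genes, and the groups did not overlap for 4 members (Gng13, Arhgef33, Atp2a3 and Car8), against 0.466% of all genes. The members' median in Het Hit 2 against Het DMSO was 0.25 and that of all genes 0.31. Without 409, 410 and 411, the members' median in Het Hit 2 against Het DMSO was 0.36 and that of all genes 0.21, and no member passed the adjusted threshold (0% of all genes did). In that setting 7 members were higher at an unadjusted p of 0.05 (3.58% of all genes), and for 9, all but Pcp4, the 3 Het Hit 2 libraries lay above both Het DMSO libraries (15.8% of all genes). With 410 kept and only 409 and 411 left out, 0 members were higher at an unadjusted p of 0.05, and 2 lay wholly above Het DMSO. Calb1 stood at 67.0 to 81.2 reads per 100 granule reads in WT DMSO, 27.8 to 52.6 in Het DMSO and 45.6 to 71.1 in Het Hit 2. For Rgs8 the ranges were 158 to 194, 104 to 193 and 109 to 165, overlapping in all groups.

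**Figure D4:**
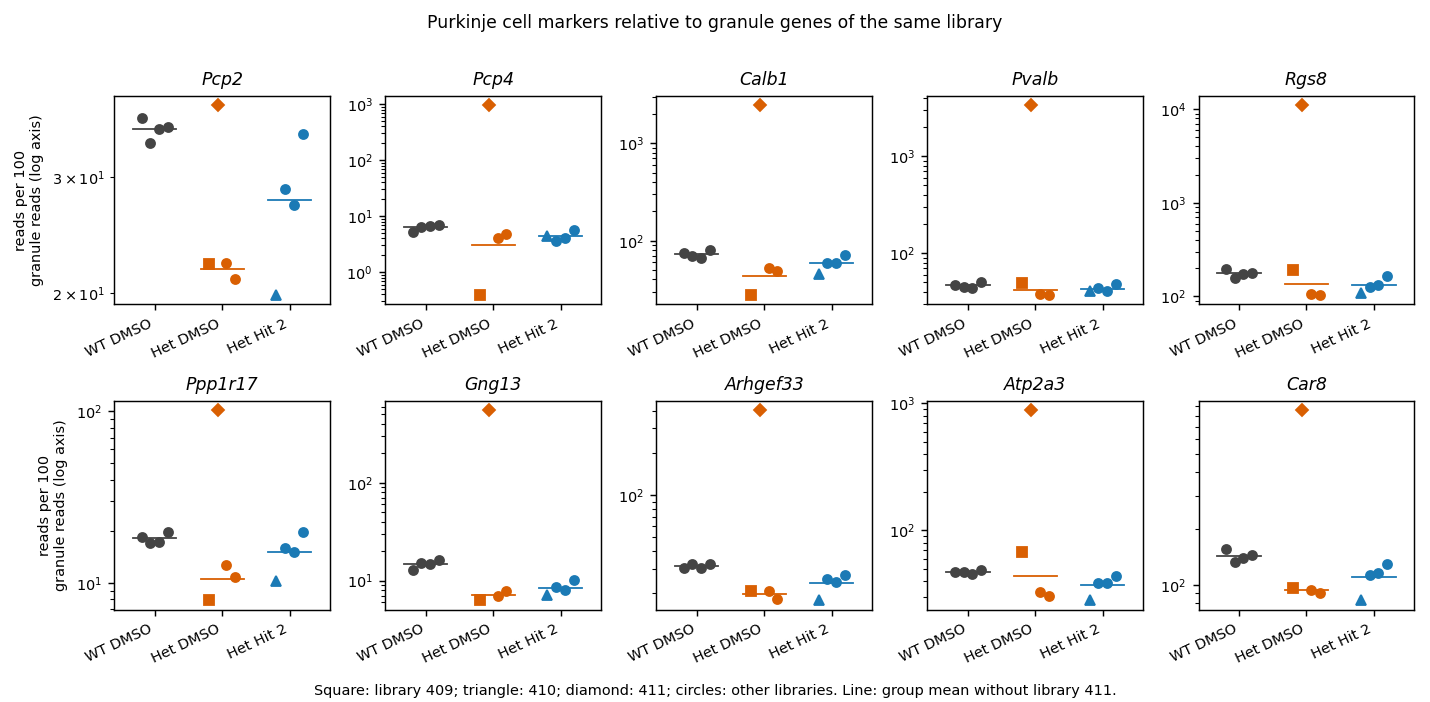
Reads of each marker per 100 granule reads (log axis; geometric mean of Gabra6, Fat2 and Neurod1) in every library by group, with a line at the group mean without library 411. The diamond, 411, lies above the other Het DMSO libraries for all 10 markers, and Gng13 is below WT DMSO in the 7 other Het libraries.

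The markers were also set against each other, as reads of each per 100 reads of the other 9 (geometric mean) in the same library, leaving out 411. Gng13 stood at 34.2 ± 3.20 in WT DMSO (SD, n = 4), 26.2 ± 2.03 in Het DMSO (SD, n = 3) and 25.0 ± 1.24 in Het Hit 2 (SD, n = 4). Neither Het group overlapped WT DMSO, with an exact two-sided permutation p of 0.057 for Het DMSO and 0.0286, the smallest possible, for Het Hit 2. Pvalb went the other way, at 123 ± 3.27 in WT DMSO (SD, n = 4), 191 ± 58.8 in Het DMSO (SD, n = 3) and 154 ± 18.4 in Het Hit 2 (SD, n = 4). The exact permutation p of Pvalb was 0.0286 in both comparisons with WT DMSO. Library 409 stood at 259 and the other 2 Het DMSO libraries at 156 and 158, and the log2 difference of Pvalb from WT DMSO was 0.60 with 409 and 0.36 without it. The other 8 members overlapped between WT DMSO and each Het group. These p-values were not adjusted for the 10 members examined, and Gng13 was already known to stand lowest when they were computed.

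Library 411 did not hold the markers at equal shares of their WT DMSO mean. Pcp2 was at 0.285%, Ppp1r17 at 1.47% and Car8 at 1.58% of that mean. Pcp4 was at 40.0%, Pvalb at 19.1%, Rgs8 at 16.5%, Gng13 at 9.82% and Calb1 at 8.86%. As background, Pcp4, Pvalb and Calb1 also mark neurons of other brain regions.

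Beside the 10 members, 14 further Purkinje cell genes were examined, among them the inositol trisphosphate receptor Itpr1 and the transcription factor Rora. In Het DMSO against WT DMSO 13 were lower and 1 higher (44.2% of all genes were lower), and none passed the adjusted threshold (0.00516% of all genes did). Their median log2 fold change was -0.58 with all libraries, -0.31 without 411 and -0.36 without 409, 410 and 411. Plcb4, a phospholipase that makes inositol trisphosphate, gave -0.53 (SE 0.23, edgeR adjusted p = 0.62), and Rora gave -0.58 (SE 0.28, edgeR adjusted p = 0.62). The median of the 14 in Het Hit 2 against WT DMSO was -0.39, with none past the adjusted threshold (0.00516% of all genes), and it was -0.41 without 411 and -0.24 without 409, 410 and 411. Between Het Hit 2 and Het DMSO none passed the adjusted threshold with all libraries (0% of all genes), and the median was 0.18, turned to -0.12 without 411, and was 0.14 (10 higher and 4 lower) without 409, 410 and 411. Without 409, 410 and 411, 2 of the 14 passed in the lower direction in Het DMSO against WT DMSO (0.345% of all genes), among them Inpp5a, a phosphatase that acts on inositol trisphosphate (-0.54, edgeR adjusted p = 0.042). In that setting 1 of the 14 passed in the lower direction in Het Hit 2 against WT DMSO (0.37% of all genes).

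The genes whose pattern was most like the mean of the members were sought among 12440 genes with a mean of at least 5 CPM. Likeness was the root mean square difference of centred log2 CPM over the 10 libraries other than 409 and 411, and a gene that did not vary would score 0.416. Outside the set, the closest were Homer3 (0.0556), Zfp385c (0.0686), Col18a1 (0.0696), Prmt8 (0.0827) and Shisa6 (0.0862). Homer3, a scaffold that ties glutamate receptors to calcium stores and one of the 14 further genes, stood at 219, 200, 230 and 208 CPM in WT DMSO, 152 and 133 CPM in Het DMSO libraries 420 and 429, and 85.4 (410), 157, 189 and 149 CPM in Het Hit 2. These 10 libraries share the groups compared above, so the likeness includes any difference between groups.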

How the data were processed

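The authors deposited raw read counts per gene, 1 table per library, aligned and counted with STAR 2.7.10a on GRCm39 (mm39), per the submitters' processing notes; the annotation release is not given in the sources used here. The counts on the strand of the second read were used, since 5.21% to 6.47% of gene reads lay on the other strand. Reads in no feature (44.7% to 54.6%), multimapping, unmapped and ambiguous reads stayed out of library sizes. Symbols and exon lengths came from GENCODE M21 (GRCm38), which matched 55141 of 55401 identifiers. Because the builds differ, no coordinates of the counted genes are given; the promoter coordinates are those of the RefSeq table on GRCm38.p6.

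All 12 libraries entered 1 quasi-likelihood fit in edgeR 4.0.16 (R 4.3.3) with TMM scaling and 19378 genes kept by filterByExpr, two-sided, with Benjamini-Hochberg adjustment over all genes and a threshold of 0.05. Standard errors and 95% intervals come from its F statistic. A second fit scaled libraries to equal mean log2 counts of Gabra6, Fat2 and Neurod1. The exact permutation tests given used log2 ratios of reads without a prior count. They cannot go below 0.0286 with 3 or 4 libraries against 4. The log2 CPM used for likeness held a prior count of 2. Alternatives included DESeq2 1.42.0 and limma 3.58.1. The fit was tested on simulated data. Genes named were all members, the 3 granule genes, the 14 further Purkinje genes past the threshold or among the 3 smallest p-values in Het DMSO against WT DMSO, and the 5 genes most like the members; others were chosen after their values were seen. The members and lists were chosen with earlier results of these data known. Some genes that this rule names are not reported here.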

Additional observations from a re-analysis of the deposited data

Results flagged for a closer look

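Of 69 checks of a library's gap to its group, 12 stood out, where chance would give about 3.45 if the checks were independent. The checks are not independent, as all ratios of a library share its granule reads. All 12 were library 411 of Het DMSO. It was far below the other 3 Het DMSO libraries in CPM for Pcp2 (0.555, next 110) and Car8 (12.4, next 474). It was far above them in reads per 100 granule reads for all 10 members: Pcp2 38.5, Pcp4 963, Calb1 2473, Pvalb 3384, Rgs8 11078, Ppp1r17 102, Gng13 550, Arhgef33 403, Atp2a3 883 and Car8 858. The same library held 153 CPM of granule genes and 130 CPM of midbrain and forebrain genes, as given above.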

How the results depend on the processing

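No paired analysis was possible because animal numbers do not recur between groups. On the TMM scale the count of members past the threshold stayed at 0 in each comparison when any single library was left out, and the members' median ranged from -1.34 to -0.71 (Het DMSO against WT DMSO), -0.78 to -0.44 (Het Hit 2 against WT DMSO) and 0.00 to 0.59 (Het Hit 2 against Het DMSO). In Het DMSO against WT DMSO the count became 1 with limma quality weights (Gng13, adjusted p = 0.024; 0.506% of all genes) and 5 without 409, 410 and 411 (0.42%). In Het Hit 2 against WT DMSO it became 1 with only these groups fitted (Gng13, adjusted p = 0.040; 0.283% of all genes), and 2 (Gng13 and Pcp4) with quality weights (1.14%), without 409 and 411 (0.448%), and without 409, 410 and 411 (0.545%). DESeq2 called no member in any comparison.

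In Het Hit 2 against Het DMSO, signs turned as follows, with the cause not tested. Pcp4 gave -0.22 with quality weights, -0.30 without 409 and 411, and -0.21 without 409, 410 and 411. Without 409 and 411, Calb1 gave -0.068, Pvalb -0.081, Gng13 -0.085 and Car8 -0.0004. Atp2a3 gave 0.0020 with only these groups, 0.17 with quality weights and 0.17 without 409, 410 and 411. With single libraries left out, Pcp4 ranged from -0.082 (without 409) to 0.60, Pvalb from -0.20 (without 411) to 0.34, Rgs8 from -0.25 (without 411) to 0.48, and Atp2a3 from -0.45 to 0.51 (without 409).

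Relative to granule genes, values with all 12 libraries rest on 411. The share of all genes called stands in brackets after each count. In Het DMSO against WT DMSO the count of 2 (96.3%) became 1 with Neurod1 alone (92.5%), 0 with 8 granule genes (89.5%), 0 without 409 and 411 (0.0149%), 0 without 425 and 426 (0%), and 1 without 409, 410 and 411 (0.0849%); it ranged from 0 to 3 with any single library left out (0.0203% without 411, 89.0% to 97.4% otherwise). The median there was -0.63 both without 409 and 411 and without 409, 410 and 411, and ranged from -0.68 to 3.16 with a library left out. Gng13 ranged from -1.06 (without 411) to 3.67 with a library left out and gave -0.99 without 409 and 411 or 409, 410 and 411, and Pcp2 gave 0.0042 with Fat2 alone and 0.93 with unstranded counts. In Het Hit 2 against Het DMSO the count of 3 (96.0%) became 5 with Fat2 alone (97.3%), 1 with Neurod1 alone (89.5%), with 8 granule genes (86.3%) or without 425 and 426 (90.5%), and 0 without 409 and 411 or all 3 libraries (0%); it ranged from 0 to 5 with a library left out (0% without 411, 79.4% to 97.3% otherwise). The median was 0.25 without 409 and 411 and 0.36 without 409, 410 and 411, and ranged from -3.49 to 0.25. Gng13 ranged from -4.47 to 0.26 (without 411) with a library left out and gave 0.18 without 409 and 411 and 0.25 without 409, 410 and 411. Pcp2 gave -0.26 with Gabra6 alone, -0.35 with Fat2 alone, -1.27 with unstranded counts, and from -0.030 (without 430) to 0.35 with a library left out. In Het Hit 2 against WT DMSO the count stayed at 0 and the median ranged from -0.47 to -0.24 with a library left out.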
